A study of Gelatoporia subvermispora and Trametes versicolor with 24 samples.

Results

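In Gelatoporia subvermispora, a white-rot fungus that decays wood and degrades its lignin, 23 of 12313 genes were near silent in shaken liquid culture and had clear transcript levels in standing culture. These genes were chosen by their measured levels on the log2(CPM + 1) scale, where CPM is the reads of a gene per 1000000 gene reads of its library. A gene entered when its mean in static culture lay at least 2 above its mean in agitated culture, both with and without antioxidants, and when both agitated means lay below 1.2, which is 1.30 CPM. The static-against-agitated values below are therefore a description and carry no test. The deposited tables give the genes running numbers without names or products, so no function is attached to any of them, and 8 are cited by number.

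The cultures were of strain FP-105752, grown at 28 °C in 250 mL flasks with 25 mL of Czapek-Dox, a defined mineral medium, and cellobiose, a sugar released from cellulose, at 15 mM. The 12 libraries fall into 4 groups of 3, which were static cultures with antioxidants, static cultures without, agitated cultures (220 rpm) with antioxidants and agitated cultures without. The antioxidants were α-tocopherol at 1 mM and ascorbic acid at 5 mM, put in 30 min before induction. All 4 groups received 4-hydroxybenzoate, a lignin-related aromatic acid, at about 2 mM on day 10, and mycelium was collected 24 h later, on day 11. Whether a group's 3 libraries are 3 separate flasks is not stated, and p-values measure the spread between these libraries only.

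Filamentous fungi shaken in liquid usually grow as pellets in mixed, aerated medium, whereas a standing flask lets them form a mat at the surface with gradients of oxygen and nutrients below it. In white-rot fungi such as Phanerochaete chrysosporium, shaking is long known to repress part of the lignin-degrading enzyme system. Ascorbic acid and α-tocopherol scavenge reactive oxygen species in water and in lipid. In bulk RNA, a larger share of hyphae that express a gene and more transcript in each of them cannot be told apart.

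Libraries held 7875324 to 26653884 gene reads, the smallest being static replicate 1 without antioxidants. Agitated antioxidant replicate 3 had the highest CPM of its group for 67.7% of the tested genes and stood apart in that sense. The next largest share was 54.9%, in agitated replicate 1 without antioxidants. These CPM carry no scaling between libraries beyond the read total. In edgeR's normalisation the factor of agitated antioxidant replicate 3 was 1.04, against 0.853 and 0.874 in the other libraries of its group. Static libraries lost 31.4 to 40.8% of their reads to low mapping quality and agitated ones 33.7 to 49.1%, and values of any gene with a near-identical copy are therefore uncertain. All 23 genes passed the filter on low counts, which kept 10529 genes. They could pass through the static groups alone, where they are high by choice.

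In static culture the 23 genes ranged from 4.86 to 362 CPM (mean of the 6 static libraries) with a median of 14.4 CPM, below the median of 29.6 CPM over the tested genes. Their place among the tested genes in static culture ran from the 18.3th to the 95.7th percentile, with a median at 34.8. In agitated culture they ranged from 0.185 to 1.08 CPM and none stood above the 7.54th percentile. By static level, 9 genes lay under 10 CPM, 6 between 10 and 20 CPM, 6 between 20 and 50 CPM, and 2 above 50 CPM. In agitated libraries a member had between 1 and 35 reads, with a median of 13, so counting error is large there. In static libraries it had between 36 and 17189 reads. No member had 0 reads in any library.

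**Figure D1:**
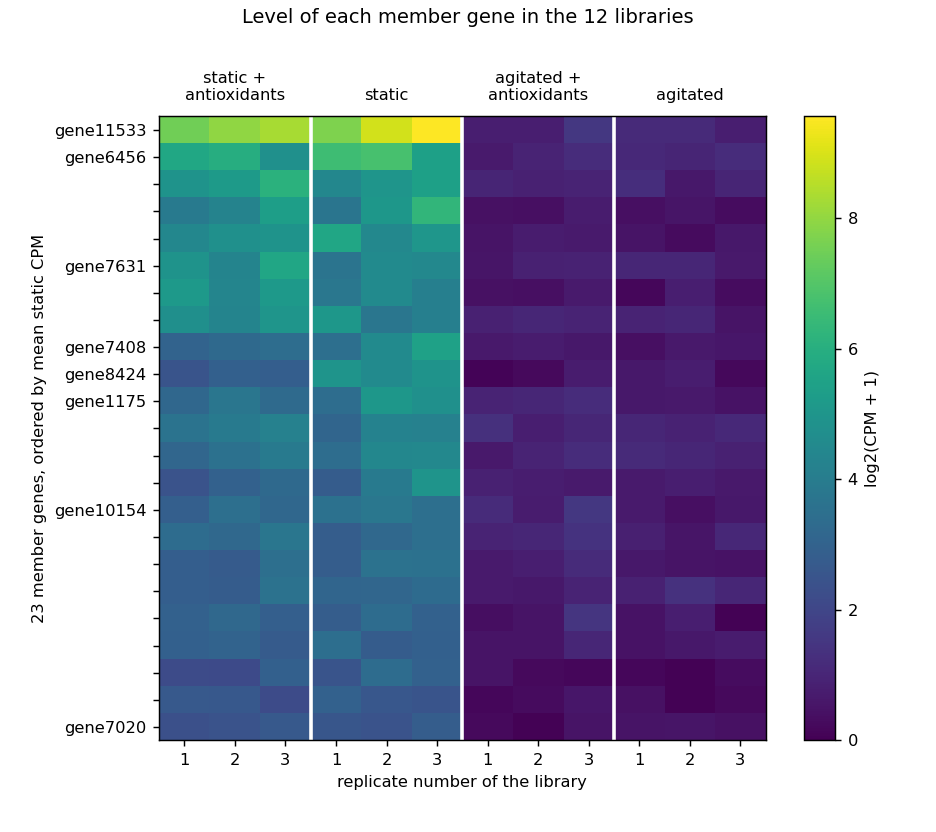
Level of the 23 genes (rows, ordered by mean static CPM, the 8 cited genes labelled) in the 12 libraries (columns, by group and replicate number), as log2(CPM + 1). The 6 static columns are lighter than the 6 agitated ones in every row, and gene11533 stands out at 362 CPM in static culture.

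Summed over the 23 genes, static libraries with antioxidants gave 0.0479, 0.0566 and 0.0727% of their gene reads to this set, and static libraries without antioxidants 0.0577, 0.0932 and 0.124%. Agitated libraries with antioxidants gave 0.00140, 0.00141 and 0.00229%, and agitated libraries without them 0.00152, 0.00153 and 0.00131%. The static and agitated libraries did not overlap, while the antioxidant groups overlapped within static culture and within agitated culture. One gene, gene11533, made up 41.7% of the set's reads in static cultures with antioxidants and 52.3% without, but 6.64% and 7.13% in the corresponding agitated cultures.

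gene11533 had the highest static level and the largest static-minus-agitated difference in both antioxidant states. It stood at 177, 248 and 314 CPM in static libraries with antioxidants, against 0.743, 0.735 and 1.92 CPM in agitated libraries with them. Without antioxidants it stood at 208, 476 and 753 CPM in static libraries, against 1.21, 1.18 and 0.726 CPM in agitated ones. Every static library was far above every agitated one, although the static libraries without antioxidants differed among themselves by up to 3.62 times. On the log2(CPM + 1) scale the difference was 6.86 with antioxidants and 7.70 without.

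gene6456 came second by both measures. Its levels with antioxidants were 50.3, 60.6 and 26.7 CPM in static libraries, against 0.629, 0.919 and 1.32 CPM in agitated libraries. Without antioxidants they were 94.6, 110 and 42.3 CPM in static libraries, against 1.13, 0.999 and 1.31 CPM in agitated ones. In both static groups replicate 3 was the lowest for gene6456, whereas it was the highest for gene11533, so the 2 most abundant genes of the set did not vary together between libraries. The static-minus-agitated difference of gene6456 was 4.52 with and 5.17 without antioxidants.

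Over the 23 genes the ratio of mean CPM, static to agitated, ran from 6.46 to 218 with antioxidants (median 17.1) and from 7.18 to 461 without (median 25.9). For the 15 genes not cited by number the differences on the log2(CPM + 1) scale lay between 2.12 and 4.46 with antioxidants and between 2.12 and 4.59 without. All 6 static libraries lay above all 6 agitated libraries for each of the 23 genes, against 21.3% of all tested genes, which the choice of the genes goes far to fix. The lowest static library was 3.31 times the highest agitated library in the tightest case and 7.36 times in the median case.

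**Figure D2:**
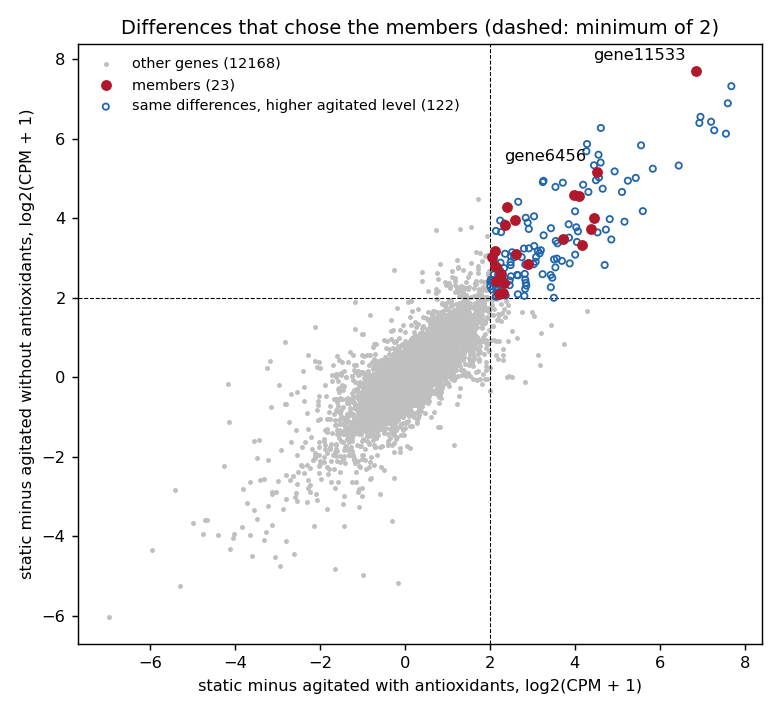
Static-minus-agitated difference of mean log2(CPM + 1) with antioxidants (x axis) and without (y axis) for all 12313 genes. Filled points are the 23 chosen genes, open circles are 122 genes past the same minimum of 2 (dashed lines) whose agitated level was higher, and gene11533 and gene6456 are labelled.

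Each gene was placed by the smaller of its 2 static-minus-agitated differences and by the larger of its 2 agitated means. The smallest such difference inside the choice was 2.04, and the next was 2.11. Outside, among genes with both agitated means under the ceiling, the largest was 1.83, followed by 1.81. The highest such agitated mean inside was 1.15, followed by 1.12. Among genes past both differences but outside the choice, the lowest was 1.28, followed by 1.29. In all, 2631 genes were under the ceiling in both agitated groups, and 1095 of these had no read in any of the 12 libraries. A further 10 genes under the ceiling passed the difference in 1 antioxidant state only, 9 of them without antioxidants. The mirror choice, genes under 1.2 in both static groups and at least 2 higher in both agitated groups, held 2 genes. TMM (trimmed mean of M-values) is edgeR's normalisation. Its factors lower a static-minus-agitated difference of log2 CPM by 0.222 with and 0.183 without antioxidants. On the log2(CPM + 1) scale the shift is smaller for genes of few reads. With libraries scaled by TMM, 18 genes met the first choice, all among the 23, and 3 met the mirror choice.

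The genes were chosen again with 1 replicate number left out of all 4 groups. The same difference was then read in the left-out libraries, whose values had no part in picking those genes. The minimum and the ceiling were set with earlier results of these data known. The left-out values, from 1 library a group, are therefore a description and not an independent check. No share of other genes meeting the same conditions in those libraries is given beside the counts. Without number 1 the choice held 22 genes, 21 of them among the 23, and all 22 were higher in static than in agitated culture in both pairs of left-out libraries. Of these, 18 again passed the minimum of 2 in both pairs. Without number 2 the choice also held 22 genes, all among the 23. In the left-out libraries all 22 were higher in static culture and 18 passed the minimum. Without number 3, which leaves out the agitated antioxidant library that stood apart, 25 genes were chosen, 20 of them among the 23. In the left-out number 3 libraries 24 of the 25 were higher in static culture in both pairs and 17 passed the minimum. Both left-out agitated libraries were under the ceiling for 19 of 22 genes at number 1, 21 of 22 at number 2 and 14 of 25 at number 3. The left-out libraries gave a median difference of 2.42 to 2.70 with antioxidants and 2.83 to 3.59 without, on the log2(CPM + 1) scale.

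Within static culture the 23 genes had a larger median spread between replicates than other genes whose means lay between the members' quartiles. Over all 23, including those outside that range, the median SD over 3 libraries on the log2(CPM + 1) scale was 0.34 with antioxidants and 0.50 without. It was 0.14 with antioxidants over 2432 other tested genes and 0.16 without over 2048, taken between the lower and upper quartile of the members' means. In agitated culture the corresponding values were 0.21 against 0.22 with antioxidants (404 other genes) and 0.15 against 0.16 without (428 other genes). No test of this difference was made, and the 122 genes past the same difference with a higher agitated level also had a larger median SE of the static antioxidant effect (0.26) than all tested genes (0.14). The highest static library without antioxidants was more than 2 times the lowest for 12 of the 23 genes, and 6.35 times in the widest case. With antioxidants it was more than 2 times the lowest for 4 genes, and 2.84 times at most.

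The libraries behind this spread were shared by many of the genes. Static replicate 1 without antioxidants, the shallowest library, was the lowest of its group for 15 of the 23 genes (65.2%), against 32.7% of all tested genes. Static antioxidant replicate 3 was the highest of its group for 15 (65.2%), against 26.0% of all tested genes. Replicate 3 was the highest in both static groups for 9 members, among them gene11533, against 7.97% of all tested genes. The 122 genes past the same difference with a higher agitated level leaned the same way, with 58.2% lowest in static replicate 1 without antioxidants and 54.9% highest in static antioxidant replicate 3. Agitated antioxidant replicate 3 was the highest of its group for 16 members (69.6%), close to its 67.7% over all tested genes.

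Whether antioxidants changed these genes within static culture was a comparison that the choice did not set, although it uses the same static libraries. edgeR's quasi-likelihood test, with p-values adjusted over the 10529 tested genes by the Benjamini-Hochberg method, called 1 of the 23 lower with antioxidants (gene8424), against 0.361% of all tested genes, and none higher, against 0.095%. At an unadjusted p under 0.05, 7 were lower and 2 higher, where all tested genes gave 6.42% and 5.14%. DESeq2 and limma-voom also called none higher. By fitted log2 fold change 18 of the 23 were below 0, with a median of -0.38 (range -2.22 to 0.80). Over all tested genes 51.1% were below 0, and their median was -0.00. Among the 122 genes with the same static rise and a higher agitated level 91 were below 0, with a median of -0.31, and 2 were called lower. No test set the 23 against these or other genes, so the lean to lower levels is not shown to be particular to them.

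The called gene, gene8424, stood at 4.58, 6.67 and 6.31 CPM in static libraries with antioxidants, against 29.6, 22.97 and 29.1 CPM in those without. The groups were far apart, with 5.85 ± 1.12 CPM with antioxidants and 27.2 ± 3.68 CPM without (SD, n = 3 each). Its log2 fold change was -2.22 (SE 0.28, edgeR adjusted p = 0.00597), and the call, though not the direction, was lost without static antioxidant replicate 1, where the edgeR adjusted p was 0.0540 at a log2 fold change of -2.05. In agitated culture gene8424 had 1, 4 and 11 reads with antioxidants and 14, 15 and 3 without.

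Deviations of same-number static libraries correlated in these same counts, so the number was also used as a block. No label explains the numbers, and calls made only with a block rest on that pairing. With a block in the static libraries edgeR called 3 members lower, which were gene8424 (adjusted p = 0.0168), gene6456 (adjusted p = 0.0177) and gene7408 (adjusted p = 0.0459), and with a block over all 12 libraries it called gene8424 alone. gene6456 averaged 45.9 ± 17.4 CPM with antioxidants and 82.1 ± 35.4 CPM without (SD, n = 3 each), and each numbered pair was lower with antioxidants. When replicate 1 of the static group without antioxidants was left out, 4 members were called lower. DESeq2 called 3 with all libraries, which were gene8424, gene7408 (DESeq2 adjusted p = 0.0116) and gene1175 (DESeq2 adjusted p = 0.0260). No share of all tested genes called in these other fits is given here. Their higher counts are therefore not a result about the members.

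Apart from gene8424, gene7408 was the only member whose static groups did not overlap, with 7.32, 8.54 and 9.78 CPM with antioxidants, against 10.3, 22.8 and 42.9 CPM without. Its log2 fold change of -1.62 (SE 0.39) did not pass the threshold in edgeR with all libraries and no block (adjusted p = 0.134). It was -1.97 (edgeR adjusted p = 0.00768) without static replicate 1 of the cultures that had no antioxidants and -0.97 (edgeR adjusted p = 0.403) without their replicate 3, so the call for gene7408 turned on single libraries. The 2 members without overlap compare with 8.79% of all tested genes that lay wholly below with antioxidants, and no member lay wholly above, against 7.41%. For gene1175 the libraries stood at 8.25, 12.3 and 8.98 CPM with antioxidants and at 9.78, 32.3 and 26.9 CPM without. Static replicate 1 without antioxidants lay inside the antioxidant range. The log2 fold change of gene1175 was -1.26 (SE 0.32, edgeR adjusted p = 0.157), and -1.60 (edgeR adjusted p = 0.00175) without that library.

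**Figure D3:**
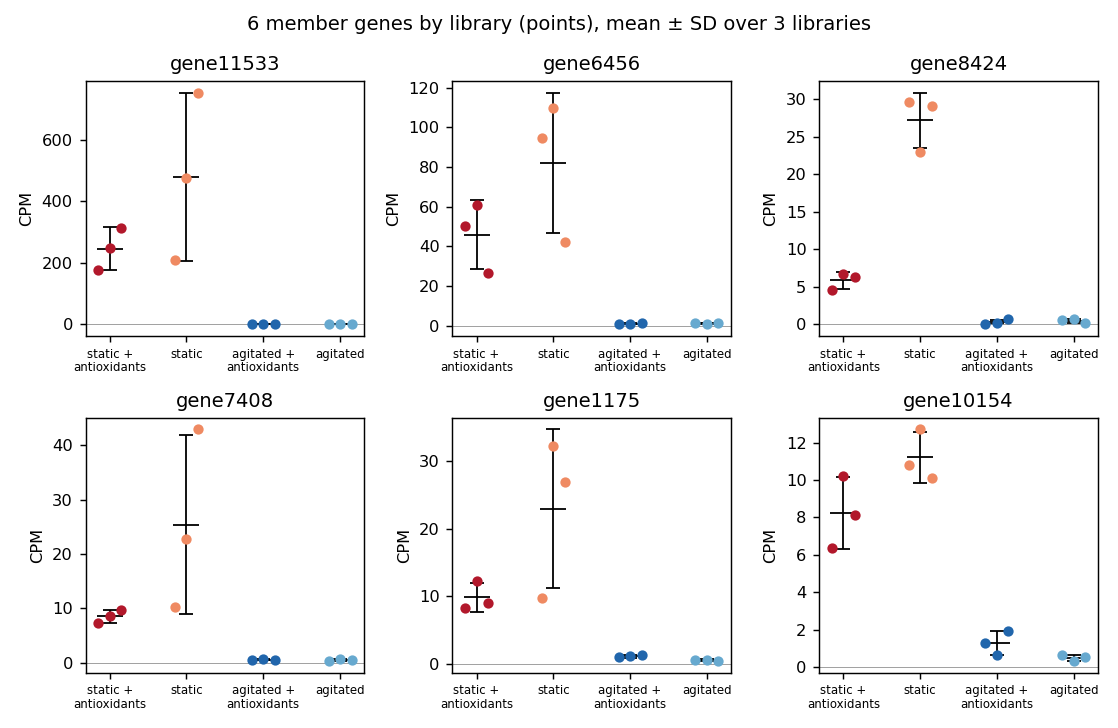
CPM of 6 genes in each library (points), with the mean and SD over 3 libraries (bars), by group. gene8424 is the only one whose static libraries with antioxidants (4.58 to 6.67 CPM) lie far below those without (22.97 to 29.6 CPM), and all agitated libraries lie near 0.

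gene11533, which has the largest share of the set's reads, averaged 246 ± 68.8 CPM in static cultures with antioxidants and 479 ± 272 CPM in those without (SD, n = 3 each), and the groups overlapped. Its log2 fold change was -0.96 (SE 0.39, edgeR adjusted p = 0.377). In the static group that had no antioxidants, leaving out replicate 1 gave -1.33 (edgeR adjusted p = 0.0530) and leaving out replicate 3 gave -0.44 (edgeR adjusted p = 0.848). The highest static antioxidant effect relative to the agitated one belonged to gene7631, at 28.8, 18.7 and 49.9 CPM in static libraries with antioxidants and 11.7, 23.02 and 20.9 CPM in those without. The groups of gene7631 overlapped too, and its log2 fold change of 0.80 (SE 0.35) did not pass (edgeR adjusted p = 0.413). Without static antioxidant replicate 3, its highest library, the log2 fold change of gene7631 was 0.30 (edgeR adjusted p = 0.789). For the 15 genes not cited by number the log2 fold changes lay between -1.40 and 0.77, with edgeR adjusted p from 0.246 to 0.983.

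In agitated culture the antioxidants could be compared only at a few reads a library, since the ceiling held both groups down. edgeR called gene10154 higher and no member lower, where 11.6% of all tested genes were called higher and 10.6% lower. At an unadjusted p under 0.05 the same 1 member was higher and 0 were lower, against 18.5% and 17.3% of all tested genes, and DESeq2 and limma-voom called 0 lower. Of the members, 3 lay wholly above with antioxidants, against 13.4% of all tested genes, and none wholly below, against 21.4%. In agitated culture the tested genes had a median of 26.4 CPM, against 0.679 CPM for the members. With the 2 agitated groups alone only 17 of the 23 passed the filter. The lower shares of members are therefore not a sign that they responded less. By log2 fold change 7 of the 23 were below 0, with a median of 0.26, against 49.4% and 0.00 over all tested genes. Without agitated antioxidant replicate 3 the median of the 23 was 0.04. Among the 122 genes with the same static rise and a higher agitated level 77 were below 0, with a median of -0.26. Of the 122 genes 20 were called lower and 9 higher. No test compared these sets. gene10154 had 22, 14 and 32 reads with antioxidants and 16, 7 and 11 reads without, which is 1.26, 0.643 and 1.92 CPM against 0.622, 0.318 and 0.532 CPM. The groups were separate by a narrow margin, 0.643 against 0.622 CPM, and the library with the highest value was replicate 3, the one that stood apart. Its log2 fold change was 1.34 (SE 0.39, edgeR adjusted p = 0.0274), and 1.03 (edgeR adjusted p = 0.104) without that replicate. The call was also lost without any other agitated library except antioxidant replicate 2. In static culture gene10154 averaged 8.22 ± 1.93 CPM with antioxidants and 11.2 ± 1.35 CPM without (SD, n = 3 each), a log2 fold change of -0.45 (SE 0.23, edgeR adjusted p = 0.491).

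The difference between the static and the agitated antioxidant effect combines the 2 contrasts that chose the genes and is given without a test. It was most negative for gene1175, with log2 effects of -1.26 in static and 1.13 in agitated culture, a difference of -2.39, and for gene7408, with -1.62 and 0.42, a difference of -2.03. It was most positive for gene7631, with 0.80 and -0.23, a difference of 1.03, and for gene7020, with -0.16 and -0.98, a difference of 0.83. gene7020 also had the lowest mean of the members over the 6 static libraries, at 4.09, 4.42 and 5.40 CPM with antioxidants and 4.83, 4.40 and 6.04 CPM without, and it had 3, 1 and 7 reads in agitated libraries with antioxidants against 11, 10 and 7 without. The SE of an agitated effect was large at such counts, with a median of 0.60 over the 23 genes against 0.14 over all tested genes. In static culture the median SE was 0.30 over the 23 genes and 0.14 over all tested genes, and 0.26 over the 122 genes with a higher agitated level.

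**Figure D4:**
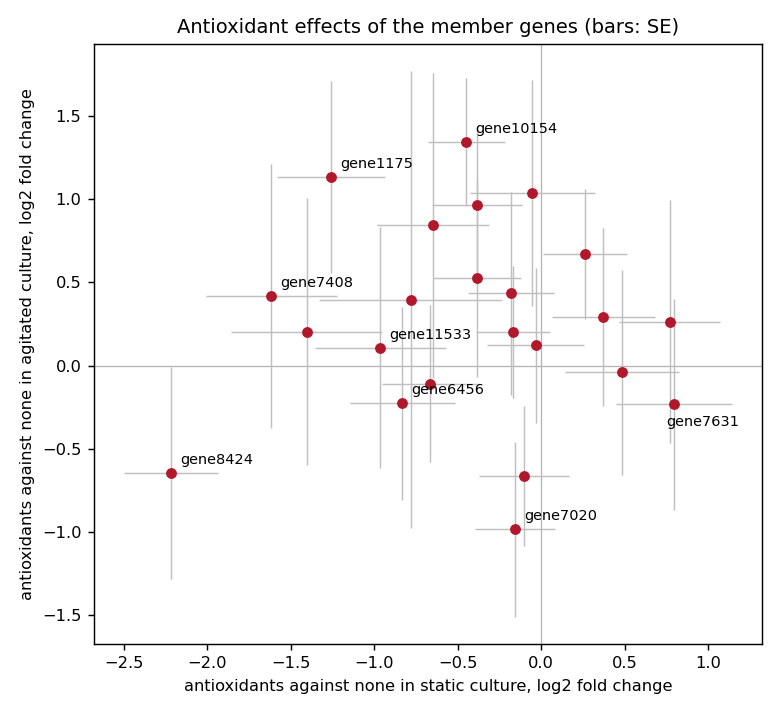
Log2 fold change with antioxidants against none in static culture (x axis) and in agitated culture (y axis) for the 23 genes, with SE bars and the 8 cited genes labelled. Points lie mostly left of 0 on the x axis (18 of 23), gene8424 lies farthest left at -2.22, and the bars are wider along the y axis, where reads are few.

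The 122 genes with the same static-minus-agitated differences and an agitated mean at or above the ceiling were the most similar group, and the 2 sets make up the 145 genes past both differences. Of the 122, 112 reached the ceiling in both agitated groups and 10 in 1 of them. Their static levels were higher, with a median of 79.6 CPM with antioxidants and 118 CPM without, against 9.85 and 17.1 CPM for the 23 genes. They held 4.21% of gene reads in static cultures with antioxidants and 5.01% without, against 0.398% and 0.365% in the corresponding agitated cultures.

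Neighbouring gene numbers were also examined. The sources used here do not say whether the numbers follow genome position. No 2 of the 23 had consecutive numbers, and the closest pair was 17 apart. The 46 genes numbered directly above or below a member were not chosen by the rule, and 39 of them were tested. With antioxidants 13 of the 39 (33.3%) were called higher in static than in agitated culture by edgeR, against 23.5% of all tested genes, and 8 lower, against 26.6%. Without antioxidants 15 (38.5%) were called higher, against 23.7%, and 8 lower, against 24.5%. Rises of 4-fold or more were called for 7 of the 39 (17.9%) in each antioxidant state, against 2.59% of all tested genes with antioxidants and 3.55% without. It was the same 7 genes in both states. Genes farther off reached similar shares only at some distances. At a number 4 above a member, 3 of 21 genes with antioxidants and 4 of 21 without had such rises. At a number 3 below, it was 3 of 20 with antioxidants but 1 of 20 without. At the other distances from 2 to 5, it was 0 or 1 gene with antioxidants and 0 to 2 without, of 19 to 23 tested.

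Of these 7 neighbours, 5 also met both differences that define the set and were kept out by their agitated level. The gene numbered 1 above gene11533 stood at 496, 614 and 783 CPM in static libraries with antioxidants, against 3.26, 1.10 and 2.64 CPM in agitated ones. Without antioxidants it stood at 327, 689 and 1053 CPM in static libraries, against 6.92, 3.81 and 2.71 CPM in agitated ones. In both static groups its libraries had the same order as those of gene11533. Between the static groups this neighbour averaged 631 ± 144 CPM with antioxidants and 690 ± 363 CPM without (SD, n = 3 each), and these overlapped. Its log2 fold change was -0.13 (SE 0.42) at an edgeR adjusted p of 0.949. The gene numbered 1 below gene6456 stood at 148 ± 13.4 CPM in static and 19.02 ± 4.44 CPM in agitated cultures with antioxidants, and at 158 ± 31.2 CPM in static and 21.5 ± 1.84 CPM in agitated cultures without (SD, n = 3 each). Its agitated levels were below the median of 26.4 CPM over the tested genes there but far above those of gene6456. Without a stated strand setting, reads of overlapping neighbours cannot be told apart, and their part in these values was not tested.

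**Figure D5:**
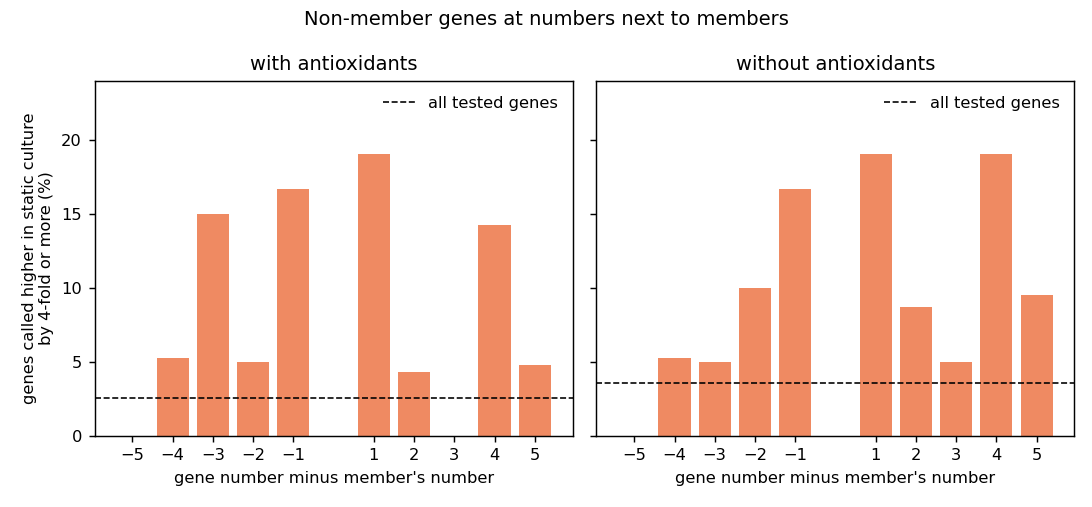
Share of tested genes called higher in static culture by 4-fold or more (edgeR, adjusted p under 0.05) at each gene number from 5 below to 5 above a member, with antioxidants (left) and without (right). Members are left out, each bar stands for 18 to 23 genes, and dashed lines give the share over all tested genes, 2.59% with antioxidants and 3.55% without.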

How the data were processed

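The authors deposited 1 table of raw read counts per gene and library, with HTSeq's 5 summary rows, none of which entered library sizes or tests. FastQC, Bowtie2, Bowtie and HTSeq are named, per the submitters' processing notes. Versions, genome build, annotation and strand setting: not given in the sources used here. Groups came from library titles. The other labels of agitated replicate 1 without antioxidants leave out the shaking.

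Levels are CPM per total of gene reads, and the rule used log2(CPM + 1). Tests used edgeR 4.0.16 in R 4.3.3 with filterByExpr, TMM scaling and 4 group means over all 12 libraries. The robust quasi-likelihood test was adjusted by Benjamini-Hochberg over 10529 genes, with calls at an adjusted p under 0.05. DESeq2 1.42.0, limma 3.58.1 (voom), other scalings, no filter, the 2 compared groups alone, the replicate number as a block and each library left out were alternatives.

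Members and lists were chosen with earlier results of these data known. Cited genes are the 2 with the largest difference in each antioxidant state, the 2 highest in static culture, up to 2 falls and 2 rises called with antioxidants in each culture, and the 2 extremes at each end of the difference between antioxidant effects. Lists by product could not be filled without names. The pairing check comes from the counts, as no label explains the numbers. Deviations from group means correlated at 0.158 to 0.386 in same-number static pairs, against -0.309 to 0.0508 in other static pairs, and at -0.0505 to 0.0929 in same-number agitated pairs. Such deviations cancel within a group, so the other pairs are not an independent comparison. Trametes versicolor libraries were not used here.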

Additional observations from a re-analysis of the deposited data

How the results depend on the processing

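The number of genes meeting the rule was 41 with a pseudocount of 0.5, 39 with a minimum difference of 1.5 and 11 with 2.5, and 15 with a ceiling of 1.0 in place of 1.2. It was 29 with a ceiling of 1.5, 18 with TMM scaling and 20 to 27 with any 1 of the 12 libraries left out. In static culture the members called lower with antioxidants numbered 3 with DESeq2, 3 with a replicate block in the static libraries and 0 to 4 with 1 static library left out, against 1 in the other 7 settings. Shares of all tested genes called in these settings are not given, so the counts are not set against them. None was called higher in any of the 15 settings, and the median log2 effect lay between -0.49 and -0.25. The log2 fold change of gene8424 lay between -2.34 and -2.05 and its adjusted p was at most 0.0540. In agitated culture 0 members were called with limma-voom and 0 to 1 with 1 agitated library left out. With the 2 agitated groups alone 17 members passed the filter and gene1175 was called in place of gene10154. With a replicate block, whose numbers do not pair in agitated culture, 1 member was called in either form. The blocks changed no other count of calls. Few reads limit all agitated values of these genes.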
